A study of Mus musculus with 6 samples.

Results

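The fragments described here come from the 5′ end of glycine tRNAs and of close sequence variants, in small RNA libraries from mouse heart. A fragment was a member when its identifier put it in the class of 5′ tRNA fragments (tRF_5), when it was 35 nt or shorter, and when its first 15 nt equalled those of tRF_5_284 or tRF_5_283 or its first 8 nt equalled those of tRF_5_217. This gave 45 of the 1336 tRNA fragment (tRF) sequences in the tables, and 45 of the 430 sequences of that class up to 35 nt. The tRF_5_284 start had 29 members, the tRF_5_283 start 10 and the tRF_5_217 start 6. The reference fragments were chosen by measured values, tRF_5_284 for its abundance and tRF_5_217 for its lower level in the knockout. Differences in level between the groups, edgeR calls included, are therefore given only as a description and support nothing. The length profile played no part in the rule, but a larger fall of the shorter fragments was already known from an earlier look at these libraries.

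The study compared hearts of 3 control mice with hearts of 3 knockout mice (L/L, cre), on a C57BL/6 background. The controls were L/L, with loxP sites around an exon of Elac2 and no cre. Each mouse has 1 column of counts, called a library here. In both groups an Elac2 exon is flanked by loxP sites; a genotype field of the labels calls the controls Elac2 +/+ and the knockouts Elac2 -/-. Cre came from a promoter that the labels call muscle creatinine kinase, which is active in cardiac and skeletal muscle cells, and RNA was taken from crude heart, so other cell types of the heart would keep the gene. No label field gives the age of the mice in words. In such bulk RNA, fewer cells of a type and less RNA per cell cannot be told apart.

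ELAC2 is the RNase Z that removes the 3′ trailer from tRNA precursors, both nuclear and mitochondrial. The mature 5′ end is made by another enzyme, RNase P. Mature tRNAs can be cut in or near the anticodon loop, for example by angiogenin, and the 5′ pieces of glycine tRNAs with anticodon GCC are known as some of the most abundant fragments in mammalian small RNA. In that tRNA the anticodon arm is a stem of 5 base pairs that carries a loop of 7 nt, and the place of the cut sets the length of the 5′ piece.

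Most members form a ladder of nested pieces with the same 5′ end. It is shown here because the results turn on where each piece stops. Positions are counted from 1 at the 5′ end, and capitals mark the 5′ strand of the anticodon stem, positions 26 to 30, found by searching the 52-nt fragment tRF_5_542 for a 5-bp stem with a 7-nt loop. In that hairpin the loop runs from position 31 to 37 and the anticodon GCC from 33 to 35.
tRF_5_178: gcattggtggttcagtggtagaattCT
tRF_5_195: gcattggtggttcagtggtagaattCTC
tRF_5_220: gcattggtggttcagtggtagaattCTCG
tRF_5_254: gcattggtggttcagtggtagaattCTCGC
tRF_5_284: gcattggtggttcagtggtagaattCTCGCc
tRF_5_318: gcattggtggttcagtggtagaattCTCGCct
tRF_5_349: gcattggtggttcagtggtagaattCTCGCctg
tRF_5_412: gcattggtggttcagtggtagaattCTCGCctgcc
The piece tRF_5_284 thus stops after the first base of the loop, tRF_5_195 stops inside the stem, and tRF_5_412 stops at the last base of the anticodon.

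The other members differ from this ladder by 1 or more bases. They are shown because their proportions differ by length, and capitals mark the bases that differ from the ladder.
tRF_5_196: gcattggtggttcagtggtagaattctT
tRF_5_285: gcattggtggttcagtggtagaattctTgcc
tRF_5_194: gcattggtggttcaAtggtagaattctc
tRF_5_283: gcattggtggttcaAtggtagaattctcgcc
tRF_5_410: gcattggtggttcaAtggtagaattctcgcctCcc
tRF_5_217: gcatGggtggttcagtggtagaattctcA
tRF_5_281: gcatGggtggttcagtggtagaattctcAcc
The 18 ladder members carry none of these substitutions. C28T marks 8 members, G15A marks the 10 members of the tRF_5_283 start, and T5G with G29A marks the 6 members of the tRF_5_217 start. A further 3 members carry G33C alone. RefSeq (GRCm38.p6) lists 14 mouse tRNA genes named for glycine with anticodon GCC and 6 with CCC, and these short sequences cannot be assigned to 1 gene copy.

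The glycine fragments made up most of the counted tRFs in both groups. They held 204516, 501609 and 303319 counts in control replicates 1 to 3 and 33544, 25887 and 45218 in knockout replicates 1 to 3. Every knockout library held fewer of these counts than every control library. The total tRF count of a library was 235046 to 773252 in controls and 45354 to 61712 in knockouts; it is not the sequencing depth, which is unknown here, so raw counts do not give a level per heart.

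As a share of all tRF counts the glycine fragments took 87.0%, 64.9% and 80.0% in controls and 60.0%, 57.1% and 73.3% in knockouts. The groups overlapped, with means of 77.3% ± 11.3 and 63.4% ± 8.64 (SD, n = 3 each). Counting error was small beside this spread, with 95% Wilson intervals of 64.8% to 65.0% in control replicate 2 and 72.9% to 73.6% in knockout replicate 3. The difference of means was -13.9 percentage points and lay between -20.1 and -9.02 when each library was left out in turn, smallest without control replicate 1. Among 5′ fragments up to 35 nt alone, the share was 93.7%, 94.1% and 91.8% in controls and 77.1%, 75.3% and 83.7% in knockouts. On that base each knockout library lay below each control library, with means of 93.2% and 78.7%.

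A single sequence held most of the counts. The 31-nt piece tRF_5_284 had 117289, 383836 and 212360 counts in controls and 27977, 20635 and 37017 in knockouts. It made up 57.3%, 76.5% and 70.0% of the glycine fragments in control libraries and 83.4%, 79.7% and 81.9% in knockout libraries. The knockout libraries all lay above the controls, and control replicate 1 was lowest. The next most abundant was the 28-nt piece tRF_5_195, with 53599, 79616 and 53424 counts in controls and 2074, 2460 and 3122 in knockouts. All pieces of 28 or 31 nt together held 85.2%, 95.2% and 94.4% of the glycine counts in controls and 90.8%, 90.8% and 89.6% in knockouts, so the 2 lengths dominated in all 6 libraries.

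The balance between these lengths differed between the groups, and a ratio inside a library does not depend on how libraries are scaled to each other. For each 100 counts of 31 nt there were 48.2, 24.2 and 34.6 counts of 28 nt in controls and 8.78, 13.7 and 9.33 in knockouts. The lowest control stood above the highest knockout (exact two-sided permutation test, p = 0.10, the smallest that 3 against 3 mice allow). Over wider windows, the log2 ratio of counts of 27 to 29 nt over counts of 30 to 32 nt was -0.85, -1.94 and -1.44 in controls and -3.46, -2.87 and -3.44 in knockouts. The mean difference of -1.84 on the log2 scale is a 3.59-fold lower ratio in knockout hearts, with no overlap between the groups (exact two-sided permutation test, p = 0.10, and p = 0.15 after Benjamini-Hochberg adjustment over 6 measures of the glycine fragments). Leaving out each library in turn gave -2.11 to -1.56. The mean length of the glycine fragments was 29.9, 30.4 and 30.2 nt in controls and 30.8, 30.6 and 30.7 nt in knockouts, a difference of 0.54 nt without overlap (exact two-sided permutation test, p = 0.10, adjusted p = 0.15).

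Summed over the parts of the arm, pieces that stop in the stem held a smaller share in knockout hearts and pieces that stop at the start of the loop a larger one. Pieces that stop in the stem, at 26 to 30 nt, took 39.4%, 21.8% and 28.5% of the glycine counts in controls and 13.4%, 17.3% and 16.2% in knockouts. Pieces that stop at the first 2 loop bases, at 31 or 32 nt, took 59.0%, 77.3% and 70.7% in controls and 84.9%, 81.1% and 83.2% in knockouts. Both parts separated the groups (exact two-sided permutation test, p = 0.10, and p = 0.20 adjusted over the 4 parts of the arm). Together these parts hold nearly all glycine counts, so a smaller share of the first brings a larger share of the second. They are thus not separate results, and most of the second part is the 31-nt length. Pieces that stop at an anticodon base, at 33 to 35 nt, took 0.79% to 1.34% in controls and 0.57% to 1.64% in knockouts, and the groups overlapped. Pieces of 18 to 25 nt, which stop before the stem, took 0.27%, 0.0032% and 0.0099% in controls and 0.027%, 0.077% and 0.062% in knockouts, also with overlap. Most of these were 25-nt pieces, with 507, 12 and 21 counts in controls and 7, 11 and 21 in knockouts. Without control replicate 1 the knockout libraries lay above the other controls at 25 nt, at a 7.86-fold higher mean. That ratio rests on few counts in each of these libraries.

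Single lengths inside the stem differed from each other. The 27-nt length took 6.07%, 1.61% and 2.11% of the glycine counts in controls and 0.46%, 0.46% and 0.21% in knockouts, a mean 8.69-fold lower in the knockout. Control replicate 1 raised the control mean: without it the knockout mean was 4.96-fold lower, still with no overlap. At 28 nt the share was 27.7%, 18.6% and 24.3% in controls and 7.33%, 11.0% and 7.65% in knockouts, a mean 2.72-fold lower. The 28-nt pieces include tRF_5_196, which ends in T. The ladder piece tRF_5_195, which ends in C, took 26.2%, 15.9% and 17.6% in controls and 6.18%, 9.50% and 6.90% in knockouts, also without overlap. Both lengths end inside the 5′ strand of the stem.

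Stops at the other end of the stem went the other way. At 30 nt, the last stem base, the share was 3.99%, 1.26% and 1.80% in controls and 5.14%, 5.36% and 7.79% in knockouts. The knockout mean was 2.59-fold higher, with all knockout libraries above all controls, and 3.98-fold higher without control replicate 1. Against 100 counts of tRF_5_284, the ladder piece tRF_5_254 stood at 6.95, 1.64 and 2.57 in controls. In knockouts it stood at 6.15, 6.71 and 9.50, so on this measure the groups overlapped. For each 100 counts of 28 nt there were 14.4, 6.79 and 7.43 counts of 30 nt in controls and 70.1, 48.9 and 101.8 in knockouts. In knockout replicate 3 the 30-nt pieces thus slightly outnumbered the 28-nt pieces. At 29 nt, between these lengths, the groups overlapped, with 0.57% ± 0.53 in controls and 0.45% ± 0.074 in knockouts (SD, n = 3 each). Without control replicate 1, which had 1.18%, every knockout library lay above both other controls, at a 1.71-fold higher mean, so that control decided the direction at 29 nt.

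Past the stem, the share at 31 nt was 57.5%, 76.7% and 70.1% in controls and 83.5%, 79.8% and 82.0% in knockouts, a difference of 13.7 percentage points (exact two-sided permutation test, p = 0.10, adjusted p = 0.15). Without control replicate 1 the difference was 8.37 percentage points, and the groups still did not overlap. At 32 nt the shares overlapped, at 0.51% to 1.51% in controls and 1.19% to 1.45% in knockouts. Without control replicate 1 the 32-nt shares no longer overlapped, and the knockout mean went from 1.49-fold to 2.32-fold higher. At 33 nt, the first anticodon base, the share was 0.38%, 0.19% and 0.17% in controls and 0.67%, 0.62% and 0.46% in knockouts, a 2.37-fold higher knockout mean without overlap (2.04-fold to 3.29-fold with each library left out). Against 100 counts of tRF_5_284, the ladder piece tRF_5_349 stood at 0.66, 0.24 and 0.23 in controls. In knockouts it stood at 0.79, 0.75 and 0.56, so on this measure the groups overlapped. Over the 18 lengths the smallest p that 3 against 3 mice allow becomes 0.30 after adjustment (exact two-sided permutation test), and 6 lengths reached it: 24, 27, 28, 30, 31 and 33 nt. The 24-nt difference rests on 16 control counts and 0 knockout counts. In a knockout library a count of 0 allows a share of up to 0.0066% to 0.012% of its glycine counts, and the 24-nt control share was 0.0054% or less, so this difference was not detectable at this depth.

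The longest pieces depended on 1 library. The 35-nt piece tRF_5_412, which ends with the last anticodon base and before an A, had 1658, 3195 and 1617 counts in controls and 238, 187 and 25 in knockouts. Set against 100 counts of tRF_5_284, this was 1.41, 0.83 and 0.76 in controls and 0.85, 0.91 and 0.068 in knockouts. The first 2 knockout libraries lay inside the control range and knockout replicate 3 far below it. Without knockout replicate 3 the mean share at 35 nt was 0.72% in knockouts against 0.67% in controls. The 34-nt piece tRF_5_382, with 278, 473 and 246 control counts and 88, 40 and 24 knockout counts, was also lowest relative to tRF_5_284 in knockout replicate 3.

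The last base of the pieces depends on the length and, at 28, 29 and 33 nt, also on C28T, G29A and G33C. Pieces ending in C held 89.1%, 94.6% and 90.3% of the glycine counts in controls and 95.9%, 95.7% and 96.8% in knockouts, and pieces ending in T held 9.33%, 4.89% and 9.29% in controls and 3.07%, 3.21% and 2.18% in knockouts. Both shares separated the groups (exact two-sided permutation test, p = 0.10 each). Pieces ending in C or T hold nearly all glycine counts, so these shares mirror each other and largely restate the shares by length. The main T-ending pieces were tRF_5_178 at 27 nt, tRF_5_196 at 28 nt and tRF_5_318 at 32 nt. The frequent 28-nt cut lies between C and G, the 31-nt cut between C and T, and the 35-nt cut between C and A.

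Other 5′ fragments also held fewer counts of 27 to 29 nt for each count of 30 to 32 nt in knockouts. For the 385 other 5′ fragments up to 35 nt, the same log2 ratio of 27 to 29 nt over 30 to 32 nt was 0.63, 0.11 and 0.63 in controls and -2.45, -2.14 and -2.57 in knockouts, a mean difference of -2.84. In each library the glycine ratio was below that of the other fragments, with a difference of -1.87 ± 0.33 in controls and -0.87 ± 0.15 in knockouts (SD, n = 3 each, log2 scale). The gap was smaller in every knockout library than in every control library, with a difference of 1.0 on the log2 scale (exact two-sided permutation test, p = 0.10, adjusted p = 0.15; 0.90 to 1.19 when each library was left out). The preferred lengths also differed: in controls, other fragments had 35.5% of their counts at 29 nt and 7.59% at 28 nt, while glycine fragments had 0.57% and 23.5%. Outside the windows, the mean share of other fragments was higher in knockouts at each length from 18 to 26 nt and from 33 to 35 nt. At 18 nt it was 0.56% in controls and 3.79% in knockouts, and at 23 nt 0.27% and 2.59%. The ratio of the other fragments pools different starts, so it shows no shift within any of them.

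Levels between the libraries were fitted with edgeR, which scaled each library with TMM (a trimmed mean over the bulk of fragments). In that fit 16 of the 45 members passed the filter on low counts, and 14 of these were called lower in the knockout and 0 higher. Among all 254 tested fragments 16.9% were called lower, but the members were chosen with this contrast in view and nothing is read from the comparison. The 2 members not called were tRF_5_254 and tRF_5_349. In 15 of the 16 tested members all knockout libraries lay below all controls in scaled counts, against 18.5% of all tested fragments; the exception was tRF_5_138. The 29 members that did not pass had at most 108 counts over the 6 libraries, and 426 control and 52 knockout counts in sum.

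The size of the fall differed along the ladder, in no steady order of length. The 25-nt piece tRF_5_138 stood at a log2 fold change of -2.81 ± 1.05 (SE). The 27-nt piece tRF_5_178 had 12401, 8052 and 6394 counts in controls and 154, 119 and 94 in knockouts. Its log2 fold change was -5.55 ± 0.75 (SE), the lowest of the ladder. The neighbours tRF_5_159 (26 nt) and tRF_5_195 (28 nt) stood at -3.96 ± 0.68 and -4.03 ± 0.83 (SE). From there the values rose to -2.47 ± 0.65 for tRF_5_220 (29 nt) and -0.95 ± 0.66 for tRF_5_254 (30 nt), which had 8156, 6308 and 5458 counts in controls and 1720, 1385 and 3516 in knockouts. Past the stem, tRF_5_284 had -2.55 ± 0.91, tRF_5_318 (32 nt) had -1.88 ± 0.62 and tRF_5_349 (33 nt) had -1.32 ± 0.59 (SE). At the far end of the ladder tRF_5_382 (34 nt) stood at -2.20 ± 0.67 and tRF_5_412 (35 nt) at -3.33 ± 0.80 (SE).

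These levels depend on the scaling. With library totals alone, the median over the tested fragments moved from 0.06 to 2.15 on the log2 scale. Of all 254 tested fragments 7 were then called lower and 104 higher. Among the members 3 were called lower and 0 higher: tRF_5_178 at -3.52, tRF_5_195 at -1.71 and tRF_5_196 at -2.0. On that scale tRF_5_254 was at 1.06, tRF_5_349 at 0.90, tRF_5_382 at 0.24, tRF_5_318 at 0.24 and tRF_5_284 at 0.020. The 27-nt and 28-nt pieces were thus lower on both scales, whereas the sign of the ladder pieces of 30 to 34 nt turned with the scaling. The calls also depended on single libraries, and so did the tested set. Without control replicates 1 to 3, 12, 9 and 11 of 14 tested members were called lower. Of all tested fragments it was 42 of 211, 26 of 212 and 27 of 211. Without knockout replicates 1 to 3 it was 12 of 21, 11 of 19 and 13 of 20 members. Of all fragments it was then 36 of 332, 39 of 328 and 34 of 345. Of the 14 main calls, 11, 9 and 11 remained without control replicates 1 to 3. Without knockout replicates 1 to 3, 9, 8 and 10 remained. The call of tRF_5_284 was lost without any 1 library except control replicate 1. The 25-nt piece tRF_5_138 had 507, 12 and 21 counts in controls and 7, 11 and 21 in knockouts, and its log2 fold change of -2.81 ± 1.05 (SE) became 0.046 without control replicate 1. The authors' deposited table gives an adjusted p for 26 members, and 17 of these are below 0.05, all lower in the knockout. The share below 0.05 over all sequences of that table is not given here. A DESeq2 Wald test run here on the deposited counts called 61 of all 1336 sequences lower, 17 of them members. That table describes the same mice, and the members were chosen with this contrast in view, so nothing is read from these counts. For tRF_5_178 the authors' deposited table lists a log2 fold change of -5.71, and for tRF_5_254 it lists -1.03 with an adjusted p of 0.297.

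The variant tRF_5_196 (28 nt, C28T) was common at its own length and rare at every longer one. It had 3056, 13397 and 20190 counts in controls and 382, 375 and 334 in knockouts. As a share of the 28-nt pieces with C or T at position 28 this was 5.39%, 14.4% and 27.4% in controls and 15.6%, 13.2% and 9.66% in knockouts. The control range held all knockout values, so this share did not separate the groups. At 31 nt the C28T form tRF_5_285 made up 0.095%, 0.091% and 0.083% in controls and 0.061%, 0.087% and 0.073% in knockouts. The sequence of tRF_5_196 is also that of the 27-nt ladder piece tRF_5_178 followed by a T, and the counts cannot tell which of these it is. The ratio of tRF_5_196 to tRF_5_178 was 0.25, 1.66 and 3.16 in controls and 2.48, 3.15 and 3.55 in knockouts, again with overlap. Control replicate 1, which had the most 27-nt pieces, had the lowest ratio. The log2 fold change of tRF_5_196 was -4.63 ± 0.89 (SE), beside -4.03 ± 0.83 (SE) for tRF_5_195.

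The longest member of the tRF_5_283 start (G15A), tRF_5_410, reads CCC at the 3 anticodon positions, where the ladder reads GCC. Of the sequences with these starts that reach position 33, all 6 with A at position 15 carry C at 33, with 174 counts, while 23 with G at position 15 carry G at 33, with 19434 counts, and 3 carry C, with 25 counts. At 31 nt tRF_5_283 had 93, 303 and 196 counts in controls and 10, 13 and 20 in knockouts. Beside tRF_5_284 this was 0.079%, 0.079% and 0.092% in controls and 0.036%, 0.063% and 0.054% in knockouts. The groups did not overlap at this length, but the counting intervals did: the 95% Wilson interval of knockout replicate 2 ran from 0.037% to 0.11%. Its log2 fold change in the edgeR fit was -3.25 ± 0.76 (SE). The 28-nt form tRF_5_194 had 20, 54 and 44 counts in controls and 2, 2 and 2 in knockouts. It passed the filter on low counts only through the control libraries, so its log2 fold change of -3.73 ± 0.86 (SE) supports nothing. With library totals alone that value was -1.25. Beside tRF_5_195 its mean share was 0.062% in controls and 0.081% in knockouts, with overlap. Over all lengths the log2 ratio of the tRF_5_283 start over the tRF_5_284 start was -10.15 ± 0.22 in controls and -10.74 ± 0.40 in knockouts (SD, n = 3 each), with overlap (exact two-sided permutation test, p = 0.20, adjusted p = 0.20).

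The G15A share varied with length in controls. It was 0.24% ± 0.092 at 27 nt, 0.062% ± 0.023 at 28 nt, 0.083% ± 0.0076 at 31 nt, 0.46% ± 0.17 at 33 nt, 3.24% ± 1.28 at 34 nt and 0.97% ± 0.58 at 35 nt (SD, n = 3 each). Of these lengths, the pieces that reach the anticodon held the larger shares. The 27-nt form tRF_5_177 had 17, 24 and 19 control counts and 0 in each knockout library. Over the knockout group 0 of 367 counts allows a share of up to 0.82%, above the control share, so a difference was not detectable at this depth. The 35-nt form tRF_5_410 had 6, 49 and 17 control counts, or 0.36%, 1.51% and 1.04%, and 0 in each knockout library. Pooled over mice, 0 of 450 knockout counts allows up to 0.67%, against 1.1% over the control libraries. Control replicate 1 already lay below that limit. Taken singly, the knockout libraries have Wilson upper bounds of 1.59%, 2.01% and 13.3%, each above every control share. A difference was thus not detectable in single libraries at this depth. The 35-nt counts of knockout replicate 3 were themselves low.

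The tRF_5_217 start, with T5G and G29A, was the smallest of the 3. The 29-nt tRF_5_217 had 161, 51 and 35 counts in controls and 5, 3 and 0 in knockouts, and the 31-nt tRF_5_281 had 43, 30 and 29 in controls and 3, 2 and 1 in knockouts. In each library but knockout replicate 3, tRF_5_217 outnumbered tRF_5_281. This reversed the order of the ladder, where the 31-nt piece outnumbered the 29-nt piece in all 6 libraries. At 29 nt this start made up 6.69%, 3.64% and 4.63% of its own and the ladder's counts in controls and 3.88%, 2.63% and 0% in knockouts, with overlap; the 0 of 240 counts in knockout replicate 3 has a 95% Wilson upper bound of 1.58%. At 31 nt it made up 0.0078% to 0.037% in controls and 0.0027% to 0.011% in knockouts. The fitted log2 fold change of tRF_5_217 was -4.17 ± 0.96 (SE). The remaining 4 members of this start had 1 or 2 counts each, among them tRF_5_315 with 1 count.

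Short pieces of 18 to 24 nt were close to the limit of counting. The 7 members tRF_5_33, tRF_5_48, tRF_5_61, tRF_5_77, tRF_5_87, tRF_5_103 and tRF_5_119 had 0 to 13 counts per library. The 18-nt tRF_5_33 had 0 counts in each control and 2, 2 and 0 in knockouts. These counts are too few to compare the groups.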

How the data were processed

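Small RNA of 15 to 35 nt from 6 hearts was sequenced, with 4 technical replicates per mouse per the series' design text; per the file headers each mouse has 1 column, and no source says how its replicates were joined. The submitters' processing notes name cutadapt 1.1.4, DESeq2 1.16.1, build mm10 and Bowtie2 2.2.9, without the rules for mapping. The authors deposited raw counts per tRF sequence, which were analysed, and a normalized signal, in which each library's counts share 1 divisor. The authors' deposited table gives sequence length, a log2 fold change with its standard error, a Wald score and p-values. Reads that fit several tRNA copies cannot be traced to 1 gene, and values of close variants depend on how such reads were assigned.

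Counts were fitted on all sequences with edgeR 4.0.16 (R 4.3.3; quasi-likelihood test, TMM, filterByExpr with minimum count 10, Benjamini-Hochberg at 0.05). The SE beside an edgeR log2 fold change is its absolute value divided by the square root of the quasi-likelihood F statistic. TMM factors ran from 0.215 to 2.56, and scaled counts are relative to them. The filter is relative to library totals. On simulated data with a dispersion of 0.363 and 272 testable sequences, the knockout against control fit called 27 of the 27 sequences changed by 4 on the log2 scale, 4 of the 19 changed by 2 and 2 of the 226 left unchanged. Within-library ratios added 0.5 to each summed count. Group means were tested by exact two-sided permutation of the libraries (20 assignments, SciPy 1.17.1), which reaches p = 0.10 at best. Named fragments are the 3 reference fragments, the 12 members with the highest mean share, the most abundant at each length and 3 of the tRF_5_217 start; tRF_5_177, tRF_5_194, tRF_5_285, tRF_5_410, tRF_5_435 and tRF_5_542 were named after their values were seen. Members and lists were chosen with earlier results of these data known. Intervals and limits cover counting error only, since the labels name no molecular identifiers. The labels do not name litters or days, so p-values measure the spread between these mice and libraries. Alternatives were other scalings and filters, DESeq2 1.42.0, limma-voom 3.58.1, a replicate block, other members or length windows, and each library left out. All deposited sample columns were mapped. tRNA fragments hold no cell type markers and no Elac2 sequence, so neither tissue nor genotype labels could be checked.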

Additional observations from a re-analysis of the deposited data

How the results depend on the processing

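The 6 within-library measures kept their direction under each alternative run. Without tRF_5_284, the most abundant sequence, the log2 ratio of 27 to 29 nt over 30 to 32 nt differed by -2.81. With tRF_5_284 left out of the glycine counts and the total, the share of the tRF count differed by -28.2 percentage points. Why these differences were larger was not tested. The 31-nt difference ran from 8.37 to 18.0 percentage points with each library left out. Leaving out members with T at position 28, an alternative chosen after seeing the data, gave -1.80 for the length ratio. Members called lower numbered 14 of 16 tested, and 3 of 16 with library totals alone. Of all 254 tested fragments 43 and 7 were called lower in these runs. With each library left out 9 to 13 members were called lower, in a tested set that changed between runs. Of the 14 main calls 8 to 11 then remained, fewest without knockout replicate 2. The sign of the log2 fold change turned with library totals for tRF_5_254 (1.06), tRF_5_284 (0.020), tRF_5_318 (0.24), tRF_5_349 (0.90) and tRF_5_382 (0.24), and without control replicate 1 for tRF_5_138 (0.046, in a range from -3.53 to 0.046 over the left-out libraries). The call of tRF_5_284 was lost with DESeq2 size factors, upper-quartile scaling, no filter and the replicate block, and without any 1 library except control replicate 1. The cause was not tested. Same-numbered libraries share only a number (correlations of deviations -0.0054, 0.29 and 0.045, with each knockout library correlating best with its own number in 1 of 3 cases); with the replicate block 11 members were called lower instead of 14, and the length ratio differed by -1.84, where 3 sign flips cannot go below p = 0.25 (exact permutation). The 35-nt values rest on few counts in knockout replicate 3.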

Other observations

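The same starts continued past the size limit of the libraries. A further 18 sequences longer than 35 nt held 1425, 4828 and 1920 counts in controls and 222, 195 and 23 in knockouts. Most of these counts in each library were in the 36-nt fragment tRF_5_435, the ladder piece that reaches 1 base past the anticodon, with 1391, 4443 and 1778 counts in controls and 212, 173 and 16 in knockouts. For each 100 counts of the 35-nt tRF_5_412 there were 83.9, 139.1 and 110.0 counts of tRF_5_435 in controls and 89.1, 92.5 and 64.0 in knockouts. Knockout replicate 3 was low at 36 nt as at 35 nt, and the cause was not tested.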
